A study of Mus musculus with 8 samples.

Results

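The genes described here are 10 immediate early and activation-induced transcripts of regulatory T cells (Tregs): the orphan nuclear receptor genes Nr4a1, Nr4a2 and Nr4a3, the zinc finger factor genes Egr1, Egr2 and Egr3, the immediate early response genes Ier2, Ier3 and Ier5, and the proto-oncogene Myc. They were taken by symbol from a deposited table of 38406 genes, in which all 10 were found, and were followed over 4 groups of Treg libraries. Of the 10, 9 passed the filter on low counts and were tested among 14772 genes, and Egr3 did not pass.

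The study profiled RNA of Tregs sorted from the spleen or the muscle of male C57BL/6 mice that were 2 months old (young) or more than 6 months old (aged), with 2 libraries for each tissue at each age, called young spleen, young muscle, aged spleen and aged muscle below. In all groups the mice had received cardiotoxin, a snake venom component that kills muscle fibres and sets off regeneration, at 0.9 µg per muscle in the tibialis anterior, quadriceps and gastrocnemius, and tissues were taken 4 days later, so that the spleens too came from injured mice and no group was uninjured. For each library 1500 Tregs were sorted in 2 rounds straight into Trizol, and the RNA was amplified by in vitro transcription and PCR. The labels name no transgene or reporter, and they call the libraries of a group biological duplicates without saying whether each came from its own mouse or from pooled mice, so the p-values below measure the spread between these libraries.

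Immediate early genes are transcribed within minutes of a stimulus from factors already present in the cell. In T cells, antigen receptor signals reach the Nr4a genes through calcium, NFAT, CREB and MEF2 factors and the Egr genes through MAP kinase, SRF and ELK factors, and the products are themselves transcription factors that switch on a later wave of genes. NR4A proteins are needed for Treg lineage stability and for dampening effector programmes, EGR2 and EGR3 are known for restraining T cells and for anergy, and MYC drives growth and ribosome production. Tissue dissociation is also known to induce these genes, and since muscle and spleen must be dissociated differently, tissue and handling cannot be told apart in this design.

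All 10 genes are protein coding, and no other annotated gene overlaps any of them (GENCODE M21, GRCm38). Nr4a1 lies at chr15:101254269-101274795 on the plus strand, Nr4a2 at chr2:57106830-57124003 on the minus strand and Nr4a3 at chr4:48045153-48086447 on the plus strand. Egr2 lies at chr10:67535475-67542188 and Egr3 at chr14:70077203-70082614, on the plus strand. Ier2 lies at chr8:84661331-84662852 and Ier5 at chr1:155096361-155099636 on the minus strand, and Ier3 at chr17:35821684-35822923 and Myc at chr15:61985391-61990374 on the plus strand.

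The 3 Nr4a promoters are shown because these receptor genes had a common regulatory letter pattern, while their levels followed different orders across the groups. The sequences are from the 250 bases before a RefSeq transcription start (GRCm38.p6), written 5′ to 3′ on the gene's strand. Capitals mark the core letters CGTCA of the cAMP response element (CRE), the CREB binding sequence, read on either strand (TGACG on the other), and in Egr2 also a CArG box, the SRF binding sequence. The Nr4a1 window, chr15:101266596-101266845, and the Egr2 window, chr10:67537619-67537868, lie in introns of longer annotated transcripts of the same gene. The Nr4a2 window is chr2:57124004-57124253, and of the Nr4a3 window only the 98 bases chr4:48045055-48045152 that no annotated exon covers are printed. The 152 bases nearest the Nr4a3 start are left out. With them goes the core match 147 bases before that start, so 3 core matches are marked in Nr4a3.
Nr4a1: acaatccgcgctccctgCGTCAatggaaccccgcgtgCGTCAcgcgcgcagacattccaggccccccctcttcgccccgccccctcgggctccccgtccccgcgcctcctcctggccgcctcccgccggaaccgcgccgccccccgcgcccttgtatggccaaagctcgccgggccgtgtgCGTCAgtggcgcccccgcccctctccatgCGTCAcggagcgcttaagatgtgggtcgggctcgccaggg
Nr4a2: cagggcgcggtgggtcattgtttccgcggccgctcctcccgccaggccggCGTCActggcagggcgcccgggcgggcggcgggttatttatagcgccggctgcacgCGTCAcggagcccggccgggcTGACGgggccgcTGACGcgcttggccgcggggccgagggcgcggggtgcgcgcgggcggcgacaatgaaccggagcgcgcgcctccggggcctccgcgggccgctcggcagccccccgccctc
Nr4a3: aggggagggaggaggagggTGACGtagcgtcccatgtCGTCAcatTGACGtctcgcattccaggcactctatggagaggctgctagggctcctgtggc
Egr2: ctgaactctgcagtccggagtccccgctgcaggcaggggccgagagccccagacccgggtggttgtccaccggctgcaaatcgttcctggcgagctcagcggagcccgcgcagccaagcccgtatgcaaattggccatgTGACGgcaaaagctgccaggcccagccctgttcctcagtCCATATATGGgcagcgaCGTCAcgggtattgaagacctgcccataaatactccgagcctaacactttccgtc

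Windows of 250 bases before the start were searched on both strands for 6 of the 10 genes. None was searched for Egr1, Egr3, Ier2 and Myc. Each of the 3 Nr4a windows held exactly 4 CRE core matches, at 233, 213, 69 and 40 bases before the start in Nr4a1, at 200, 144, 123 and 111 in Nr4a2, and at 231, 213, 205 and 147 in Nr4a3. Of 32817 promoter windows of the same length 17.7% held at least 1 such match and 45, or 0.137%, held 4 or more. The threshold of 4 is the count in the Nr4a windows themselves. The background was not matched for base composition, and GC was 74.4% in the Nr4a1 window, 80.0% in Nr4a2 and 63.6% in Nr4a3. The full CRE palindrome TGACGTCA, which contains the core on each strand, was in 1.55% of windows and in none of the Nr4a windows. The EGR binding letters GCGNGGGCG were found in Nr4a1, 60 bases before the start, and in Nr4a2, 74 bases before it, against 4.7% of windows. Of 5 Egr2 windows, for as many RefSeq starts, the one printed is that with the lowest start position among the 3 with a CRE core match. It held a CArG box 72 bases before the start, a motif found in 1.47% of windows, between CRE core matches at 111 and 55. An NF-kB site, found in 7.25% of windows, lay 92 bases before the Ier3 start, and the Ier5 window held none of the motifs searched, which also included the AP-1 letters TGANTCA, the E-box CACGTG, the NR4A response element AAAGGTCA and the MEF2 site. These matches describe letters only, and no binding was measured.

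Library totals ran from 1969982 to 4008622 counts. The 10 genes together took 0.0877 and 0.0889% of the reads of young spleen and 0.0967 and 0.0890% of those of aged spleen. In muscle the shares were 0.284 and 0.272% (young) and 0.311 and 0.280% (aged). The summed level of 9 Treg markers was 3693 to 5045 counts per 1000000 (CPM, scaled by TMM factors), and Foxp3, the Treg lineage factor, was present in all 8 libraries at 15.4 to 41.5 CPM. Young muscle replicate 1 stood apart in markers of other cells. Its 14 myeloid markers summed to 660 CPM, against 111 in young muscle replicate 2 and 45.3 to 165 elsewhere outside that group. The macrophage genes Lyz2 and C1qa were at 116 and 111 CPM there. The myeloid markers Itgam, S100a8 and S100a9 were not highest there. Itgam was higher in young muscle replicate 2. S100a8 was at 24.1 CPM against 55.3 in aged spleen replicate 2. The fibroblast gene Col1a1 was at 151 CPM in young muscle replicate 1, against 1.02 to 15.0 in the other libraries. Not all 13 muscle and stroma markers were highest there, and Dcn was at 3.22 CPM against 30.5 in aged muscle replicate 2. Aged muscle replicate 2 also held Col3a1 at 28.3 CPM and Pdgfra at 13.1, against 110 and 22.9 in young muscle replicate 1. The 6 B cell markers summed to 349 and 406 CPM in spleen and 348 and 283 in muscle of aged mice, against 107 and 92.6 in spleen and 109 and 108 in muscle of young mice. In the aged libraries most of this sum was the antigen presentation gene Cd74, and the B cell surface gene Ms4a1 was at 0.00 to 4.66 CPM. Results that rest on young muscle replicate 1 are given below with and without it.

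The plot of the 10 genes by library shows genes that are high in muscle at both ages, a gene that differs little (Ier5) and the scarce genes Egr2, Egr3, Ier3 and Myc.

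**Figure D1:**
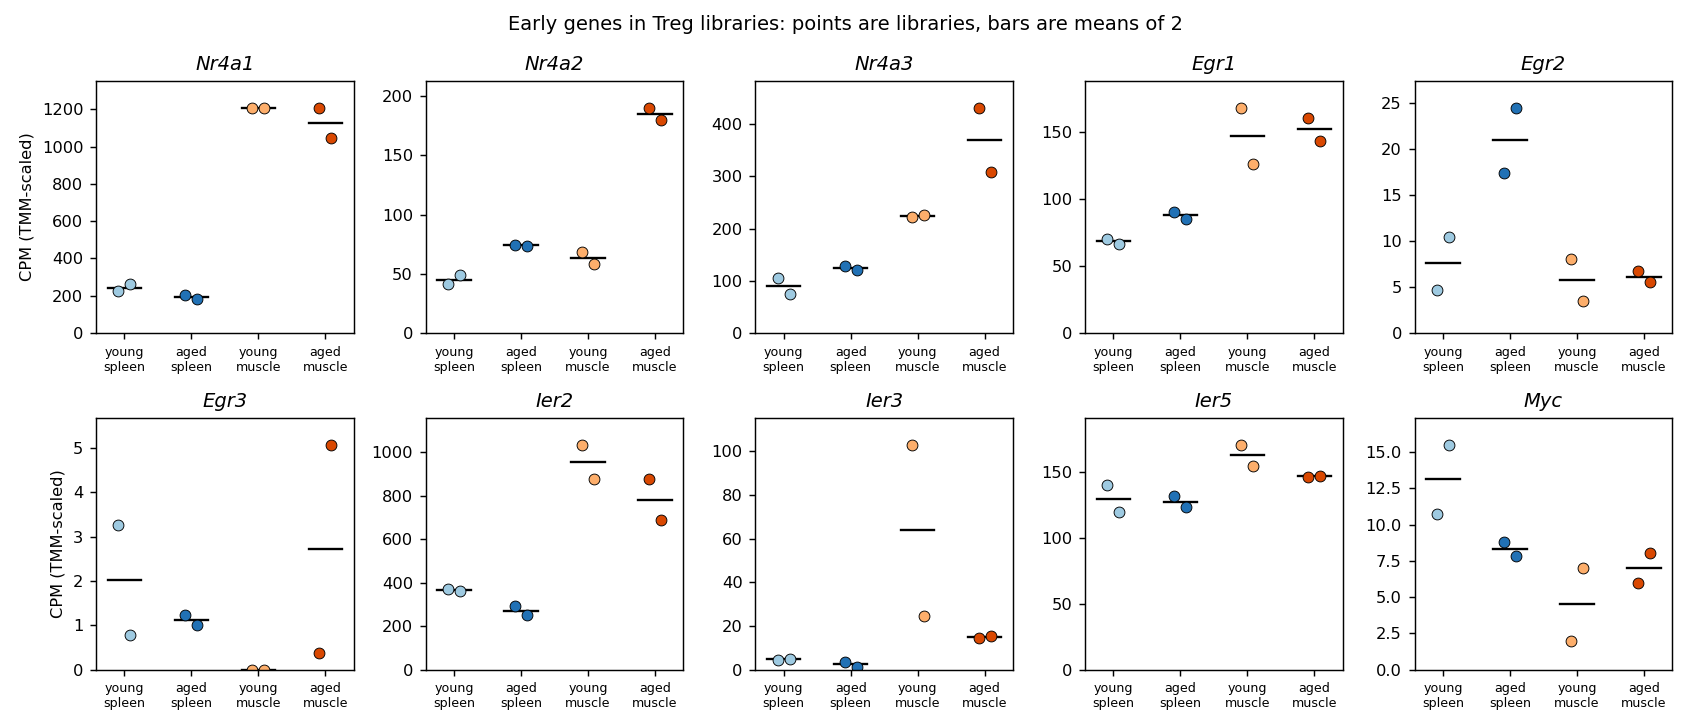
Levels of the 10 genes in CPM (linear y axis from 0, scaled per gene) in the 4 groups on the x axis. Points are libraries and bars are means of 2. All 4 muscle libraries lie above all 4 spleen libraries for Nr4a1, Nr4a3, Egr1, Ier2, Ier3 and Ier5. In Nr4a2 aged spleen lies above young muscle, and the lowest spleen library of Myc lies below the highest muscle library.

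Muscle Tregs were compared with spleen Tregs at each age, the comparison that asks how these genes differ between the injured tissue and a lymphoid organ. In young mice 5 of the 9 tested genes were higher in muscle and 0 lower, and in aged mice 6 were higher and 0 lower (edgeR quasi-likelihood test, Benjamini-Hochberg adjusted p under 0.05). DESeq2 also called 0 lower at either age, and 1 gene was lower at an unadjusted p under 0.05 at each age, Myc in young and Egr2 in aged mice. Among all genes tested 11.4% were higher and 10.9% lower in muscle of young mice, and 9.57% higher and 9.27% lower in muscle of aged mice. The median log2 fold change of the 9 genes was 1.11 in young and 1.32 in aged mice, beside 0.07 and 0.03 over all genes tested. In these bulk libraries, fewer cells expressing a gene and less RNA per cell cannot be told apart.

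Nr4a1, the receptor known as Nur77 whose transcription tracks antigen receptor signal strength, was at 223 and 262 CPM in spleen of young mice and 203 and 180 when aged. In muscle it was at 1207 and 1205 CPM when young and 1204 and 1046 when aged. Every muscle library was thus far above every spleen library. The log2 fold change was 2.31 ± 0.16 (SE, edgeR adjusted p = 1.05e-07) in young mice and 2.55 ± 0.16 (edgeR adjusted p = 8.05e-08) in aged mice. The young muscle libraries were at 1206 ± 0.83 CPM (SD, n = 2), and at 1150 and 1225 CPM when scaled by total counts. Their myeloid marker sums were 660 and 111 CPM, and the part of such cells in the result was not tested.

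Nr4a3, also known as NOR-1 and induced along with Nr4a1 in activated T cells, was at 105 and 74.4 CPM in spleen of young mice and 129 and 119.8 when aged. It reached 222 and 226 CPM in muscle of young mice and 431 and 309 when aged. Muscle was again above spleen in every library, by a log2 fold change of 1.33 ± 0.20 in young mice (edgeR adjusted p = 0.000289) and 1.57 ± 0.20 in aged mice (edgeR adjusted p = 7.38e-05).

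Nr4a2, also known as Nurr1, took another order. Spleen held 41.1 and 48.8 CPM in young mice and 74.5 and 73.3 in aged mice. Muscle held 68.0 and 57.9 CPM in young mice and 189.9 and 179.7 in aged mice. Aged muscle stood above every other library, and aged spleen lay above young muscle without overlap. Muscle exceeded spleen in aged mice by 1.32 ± 0.19 (log2, edgeR adjusted p = 0.000231), while in young mice the value was 0.48 ± 0.20 (95% interval 0.05 to 0.91, edgeR adjusted p = 0.0970). That these tissue differences differ between the ages did not pass the test (0.84 ± 0.27, edgeR adjusted p = 0.150).

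**Figure D2:**
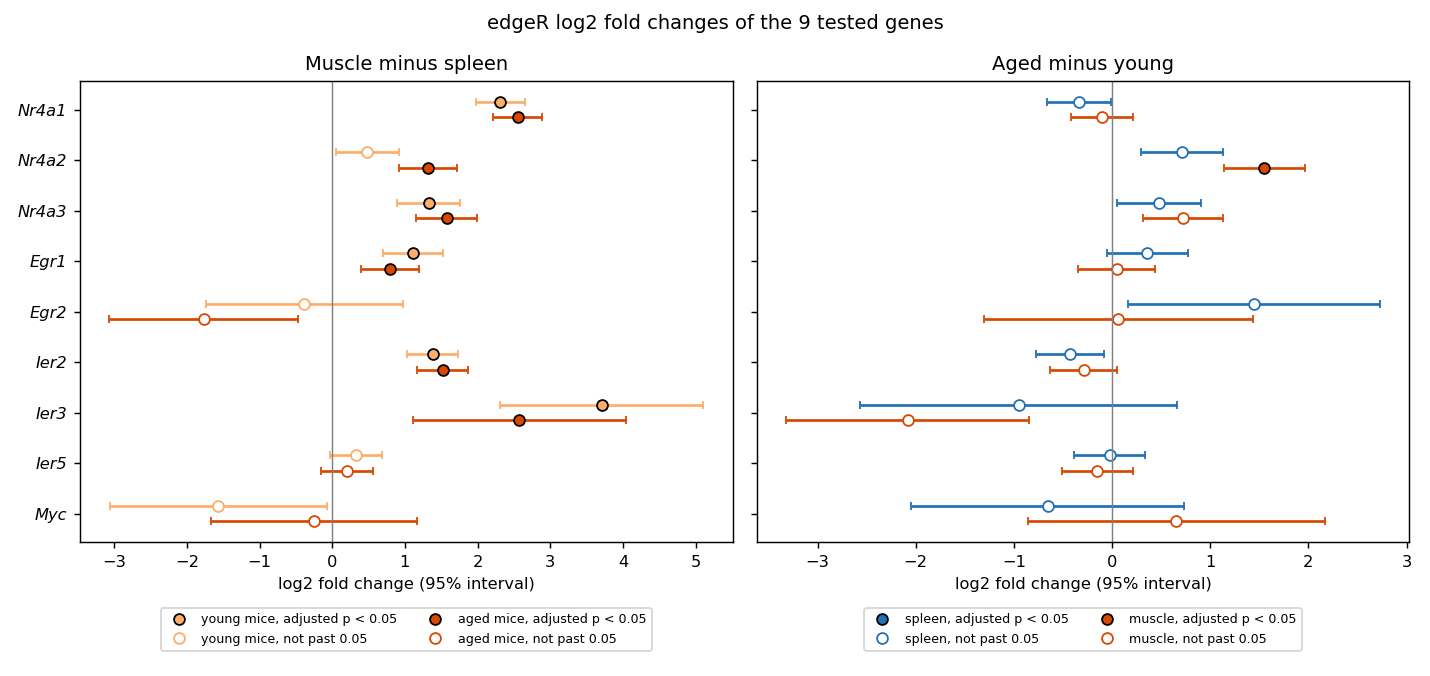
Fold changes from edgeR on a log2 x axis for the 9 tested genes, muscle minus spleen on the left and aged minus young on the right. Points are estimates, bars their 95% intervals, and filled points have an adjusted p under 0.05. On the left 5 genes are filled for young and 6 for aged mice, and on the right Nr4a2 in muscle is the filled point.

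Egr1, the most abundant of the EGR factors here per length of transcript, was at 70.1 and 66.6 CPM in spleen of young mice and 90.5 and 84.8 when aged. In muscle it was at 168 and 126 CPM when young and 161 and 143 when aged. Muscle was above spleen in every library, and the muscle groups overlapped with each other. The log2 fold change was 1.11 ± 0.19 in young mice (edgeR adjusted p = 0.000879) and 0.79 ± 0.19 in aged mice (edgeR adjusted p = 0.00932). The aged call ended without either aged spleen library, at 0.84 without replicate 1 and 0.75 without replicate 2. Such a fit leaves 1 library in the group, and fewer of all genes tested were called too.

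Egr2 did not follow Egr1. It was scarce, at 4.67 and 10.5 CPM in spleen of young mice and 17.4 and 24.4 when aged. Muscle held 8.05 and 3.50 CPM in young and 6.70 and 5.50 in aged mice. Its highest libraries were the aged spleen pair, which overlapped with no other group, whereas young spleen overlapped with each muscle group. Muscle minus spleen was -0.38 ± 0.63 in young mice (edgeR adjusted p = 0.700) and -1.76 ± 0.61 in aged mice (95% interval -3.06 to -0.46, edgeR adjusted p = 0.0555). Set against Egr1 within each library, there were 6.67 and 15.7 Egr2 reads per 100 Egr1 reads in spleen of young mice and 19.2 and 28.8 when aged. Muscle held 4.80 and 2.77 in young and 4.18 and 3.84 in aged mice. Every spleen library had a higher ratio than every muscle library.

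Egr3, a close relative of Egr2, had 7 and 2 reads in spleen of young mice and 5 and 3 when aged. In muscle it had 0 and 0 reads when young and 1 and 12 when aged. The 0 reads in young muscle allow up to 3 reads over the group, or 0.669 CPM, for counting error only. Nearly all reads of aged muscle came from replicate 2, and with no filter on low counts no comparison of Egr3 passed (edgeR adjusted p = 0.143 to 0.972). That library also held the Dcn, Col3a1 and Pdgfra levels given above, and their part in the result was not tested.

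Ier2, an immediate early gene whose small nuclear protein acts in transcription, was at 371 and 361 CPM in spleen of young mice and 291 and 253 when aged. In muscle it was at 1034 and 875 CPM when young and 876 and 686 when aged. Muscle lay above spleen in every library, and the muscle groups overlapped. The log2 fold change was 1.38 ± 0.16 in young mice (edgeR adjusted p = 2.77e-05) and 1.52 ± 0.16 in aged mice (edgeR adjusted p = 1.89e-05). Nr4a1, Nr4a3 and Ier2 kept their calls at both ages under all 14 alternative settings.

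Ier3, an NF-kB and p53 target whose product acts in cell survival, had 10 and 13 reads in spleen of young mice and 14 and 4 when aged, or 4.67 and 5.04 against 3.43 and 1.36 CPM. In muscle it had 256 and 49 reads when young and 39 and 37 when aged, or 103 and 24.5 against 14.5 and 15.6 CPM. All muscle libraries were above all spleen libraries, but young muscle replicate 1 stood far above its partner (63.7 ± 55.5 CPM, SD, n = 2). That library also had the high myeloid and collagen marker levels given above, and their part in the result was not tested. The log2 fold change was 3.71 ± 0.64 in young mice (edgeR adjusted p = 0.00141) and 2.32 without that library (edgeR adjusted p = 0.0182). In aged mice it was 2.58 ± 0.67 (edgeR adjusted p = 0.0198), a call that ended without either aged spleen library (3.43 and 2.12) or either aged muscle library (2.65 and 2.52). These fits leave 1 library in a group, and in each fewer of all genes tested were called. Without young muscle replicate 1 the other young calls remained, with Nr4a1 at 2.31, Nr4a3 at 1.34, Egr1 at 0.89 and Ier2 at 1.26.

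Ier5, a regulator of heat shock factor and phosphatase activity, was the flattest of the tested genes. Spleen held 140.2 and 119 CPM in young and 131 and 123 in aged mice, and muscle 171 and 154 in young and 146 and 147 in aged mice. Its highest group mean was thus 1.28 times its lowest. Muscle libraries lay above spleen libraries by a small margin, with log2 values of 0.33 ± 0.17 in young mice (95% interval -0.03 to 0.69, edgeR adjusted p = 0.176) and 0.20 ± 0.17 in aged mice (95% interval -0.15 to 0.56, edgeR adjusted p = 0.407).

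Myc was scarce in all groups, with 23 and 40 reads in spleen of young mice and 36 and 23 when aged, or 10.7 and 15.5 against 8.83 and 7.80 CPM. In muscle it had 5 and 14 reads when young and 16 and 19 when aged, or 2.01 and 6.99 against 5.96 and 8.03 CPM. Young spleen was highest and overlapped with no other group. Muscle minus spleen was -1.56 ± 0.70 in young mice (95% interval -3.05 to -0.07, edgeR adjusted p = 0.120) and -0.25 ± 0.67 in aged mice (95% interval -1.67 to 1.17, edgeR adjusted p = 0.813). Neither passed. The young value moved with the muscle library left out, to -2.68 without young muscle replicate 2 and -0.91 without replicate 1, the library with the high myeloid marker levels.

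The age comparison within each tissue asks how the same genes differ between young and aged Tregs. In muscle 1 of the 9 genes was higher with age and 0 lower, beside 1.14% of all genes tested higher and 0.88% lower. DESeq2 gave 2 higher and 1 lower, and 2 were higher and 1 lower at an unadjusted p under 0.05. The gene called was Nr4a2, whose mean rose from 63.0 ± 7.10 to 185 ± 7.23 CPM (SD, n = 2 each), a log2 fold change of 1.55 ± 0.19 (95% interval 1.14 to 1.96, edgeR adjusted p = 0.000392). It kept this call under all 14 alternatives, with values of 1.44 to 1.67, among them without young muscle replicate 1. The B cell marker sum given above was also higher in aged than in young muscle, and its part in the result was not tested.

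The other receptor genes gave different values in the same libraries. Nr4a3 was at 0.72 ± 0.19 (95% interval 0.31 to 1.13, edgeR adjusted p = 0.0728) and passed under 5 of the 14 alternatives. Nr4a1 was at -0.10 ± 0.15 (95% interval -0.41 to 0.21, edgeR adjusted p = 0.793), an interval whose upper bound lies below the lower bound of Nr4a2. Ier3 was at -2.08 ± 0.57 (95% interval -3.32 to -0.85, edgeR adjusted p = 0.0927), where again young muscle replicate 1 holds most of the reads, and its value without that library was -0.70.

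In spleen 0 of the 9 genes passed in either direction, beside 2.08% of all genes tested higher with age and 2.17% lower. DESeq2 also called 0, while 3 were higher and 2 lower at an unadjusted p under 0.05. Nr4a2 had a log2 value of 0.71 ± 0.20 (95% interval 0.29 to 1.13, edgeR adjusted p = 0.0560), and its aged spleen libraries lay above its young spleen libraries. It passed under 5 of the 14 alternatives. Egr2 was at 1.45 ± 0.60 (edgeR adjusted p = 0.231), Nr4a3 at 0.48 ± 0.20 (edgeR adjusted p = 0.240), Nr4a1 at -0.34 ± 0.15 (edgeR adjusted p = 0.273) and Ier2 at -0.43 ± 0.16 (edgeR adjusted p = 0.185). The intervals of the scarce genes were wide, 0.17 to 2.73 for Egr2 and -2.05 to 0.73 for Myc.

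The difference of the age effects, muscle minus spleen, was tested directly, and 0 of the 9 genes passed by edgeR or DESeq2 (1 higher and 0 lower at an unadjusted p under 0.05), beside 1.35% of all genes higher and 1.17% lower. The gene at an unadjusted p under 0.05 was Nr4a2, given above.

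Nr4a1 and Nr4a2 differed in their relative amounts between the groups. Within each library there were 5.43 and 5.37 Nr4a1 reads per Nr4a2 read in spleen of young mice and 2.73 and 2.45 when aged. In muscle the ratio was 17.8 and 20.8 when young and 6.34 and 5.82 when aged. The ratio was higher in muscle than in spleen at each age and lower in aged than in young mice in each tissue, with no overlap between any 2 groups. A ratio within a library is unaffected by library scaling and shows unequal change of the pair. Per kilobase of annotated exon, Nr4a1 made up 69.7 and 75.3% of the receptor family's CPM in spleen of young mice and 59.2 and 57.4% when aged. In muscle its share was 86.5 and 86.8% when young and 74.3 and 75.7% when aged. Nr4a2 made up 3.61 to 4.21% in young muscle and 18.8 to 20.2% in aged spleen, its lowest and highest shares.

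**Figure D3:**
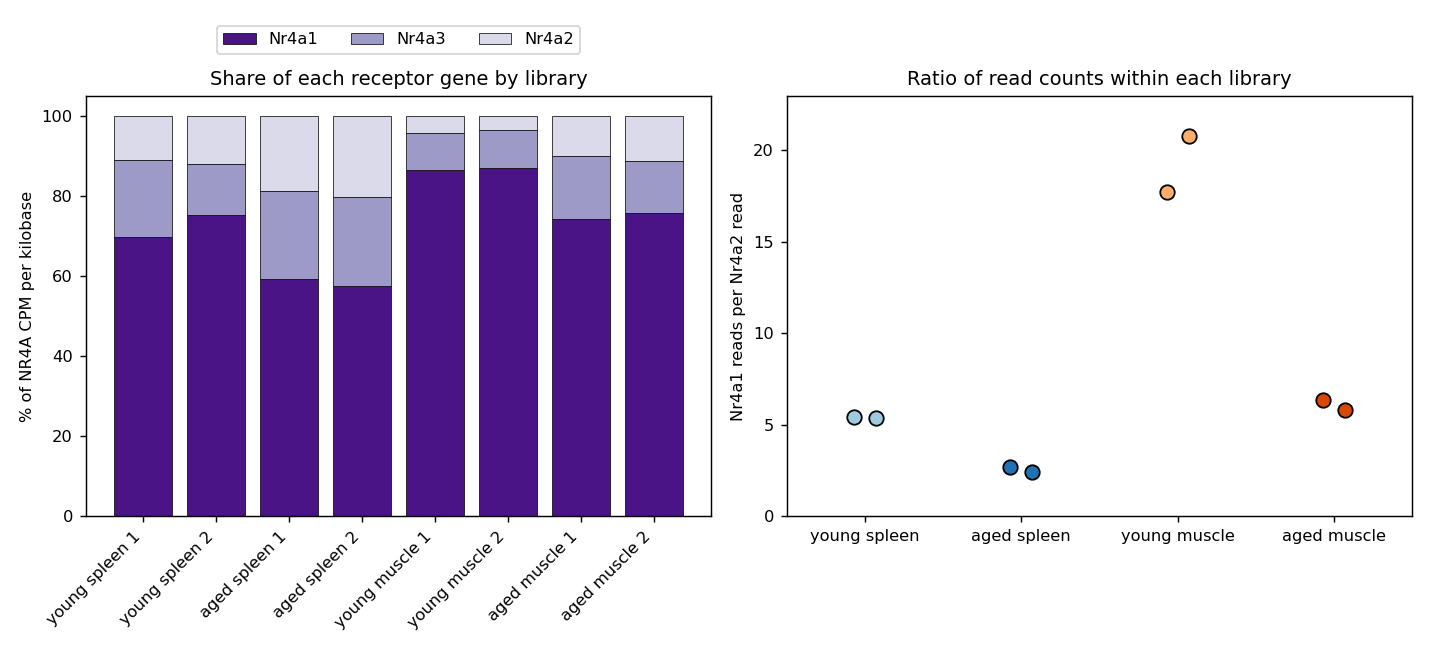
Left, the percent of summed Nr4a CPM per kilobase that each receptor gene took in each library (stacked bars from 0 to 100%). Right, Nr4a1 reads per Nr4a2 read in each library (points, linear y axis from 0). Nr4a1 took 57.4 to 86.8% of the total, and the ratio ran from 2.45 in aged spleen to 20.8 in young muscle.

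Ordered by group mean, no neighbouring groups overlapped in Nr4a1 (aged spleen, young spleen, aged muscle, young muscle), Nr4a2 (young spleen, young muscle, aged spleen, aged muscle), Nr4a3 (young spleen, aged spleen, young muscle, aged muscle) or Ier3 (in the order of Nr4a1). The nearest muscle libraries of Nr4a1 were at 1204 (aged) and 1205 CPM (young), so its order within a tissue depends on scaling. Scaled by total counts, its muscle groups overlapped (1150 and 1225 CPM young, 1236 and 1151 aged). Its spleen groups then overlapped too (201 and 242 CPM young, 207 and 184 aged). Ier2 and Ier5 took the order of Nr4a1 too, with overlap of the muscle groups in Ier2 and of the spleen groups in Ier5. Egr1 took that of Nr4a3. Egr2 and Myc, which passed in no comparison, had lower means in muscle than in spleen, with overlap between some neighbours. The order of means ran in Egr2 from young muscle through aged muscle and young spleen to aged spleen, and in Myc from young muscle through aged muscle and aged spleen to young spleen. The highest group mean was 26.6 times the lowest in Ier3 (10.2 times without young muscle replicate 1), 6.30 in Nr4a1, 4.13 in Nr4a3, 4.11 in Nr4a2, 3.62 in Egr2 (5.98 without that library), 3.51 in Ier2, 2.92 in Myc (1.88 without it) and 2.22 in Egr1. Per kilobase, Ier2 was the most abundant of the 10 in every group, from 179 CPM per kilobase in aged spleen to 627 in young muscle, followed by Nr4a1, from 54.6 in aged spleen to 344 in young muscle, and Egr3 was the lowest in every group.

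Across the 8 libraries, Pearson's r of log2 CPM was 0.98 between Nr4a1 and Ier2, 0.93 between Nr4a3 and Egr1, 0.93 between Ier2 and Ier3, and 0.91 between Nr4a1 and Egr1. Negative values involved the scarce genes, with -0.66 between Nr4a1 and Egr2 and -0.82 between Ier5 and Myc. These values describe 8 points that fall into a muscle and a spleen cluster and share each library's depth. The genes outside the 10 with the profile most like that of Nr4a1 were the nuclear lamina gene Lmna (r = 0.997), the transcription factor gene Ets2 (0.997) and the phosphatase gene Dusp5 (0.995). Ets2 (0.989) was also near Ier2, beside Ulk1 (0.995) and Actg1 (0.992). Nr4a3 was nearest to Igfbpl1 (0.986), Itgav (0.981) and Rgs2 (0.977), Egr1 to Ptprj (0.992), and Nr4a2 to Chrm4 (0.984). For the mean of the 9 tested genes, each standardised, the nearest were Tagln2 (0.991) and Atf3 (0.988), the latter itself an early gene.

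Other early genes, a list of 50 tested transcripts such as the AP-1 and KLF factors and feedback inhibitors, were higher in muscle for 27 and lower for 5 in young mice, and higher for 27 and lower for 2 in aged mice. Their medians were 1.02 and 0.88. Among all genes tested 11.4% were higher and 10.9% lower in muscle of young mice, and 9.57% and 9.27% in muscle of aged mice. Fosb, an AP-1 subunit gene, went from 80.4 and 59.3 CPM in spleen to 888 and 932 in muscle of young mice, and from 124 and 104 to 934 and 807 in aged mice, a log2 rise of 3.71 in young and 2.93 in aged mice. Gadd45b, a stress response gene, rose by 3.03 and 2.45, Irf4, a factor of antigen-experienced T cells, by 2.65 and 1.81, and Dusp5, an ERK phosphatase gene, by 2.23 and 2.79. The 5 genes lower in young muscle were Jun (-1.76), Klf2 (-1.26), Maff (-1.64), Btg1 (-0.93) and Dusp2 (-0.91), and the 2 in aged muscle were Jun (-1.37) and Btg1 (-0.88), named after their values were seen. Jun encodes an AP-1 subunit, and it was at 813 to 850 CPM in young spleen and 237 to 253 in young muscle. Without young muscle replicate 1 the young counts were 26 and 5, and each gene named here kept its call under all alternatives.

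With age, Maff, a small MAF factor gene, moved in opposite directions in the tissues. In spleen it went from 87.9 and 101 CPM in young to 23.5 and 28.5 in aged mice, and in muscle from 31.8 and 28.5 to 131 and 146. It fell by 1.86 in spleen and rose by 2.20 in muscle (edgeR adjusted p of the difference 3.1e-06). Bhlhe40, a T cell activation factor gene, rose in each tissue, by 1.94 in spleen and 2.35 in muscle, and Klf2, which maintains quiescence and recirculation, fell by 1.31 in spleen. In all, 3 early genes were higher with age in muscle (Maff, Bhlhe40 and Rgs2, the latter not when only the muscle groups were fitted) and 1 lower (Zfp36l2, whose call ended under 9 of the 14 alternatives, among them without any 1 spleen library, young muscle replicate 1 or either aged muscle library, at -0.60 to -0.63). In spleen 5 were higher (Bhlhe40, Id2, Fosl2, Plk3 and Fosb) and 3 lower (Maff, Klf2 and Dusp5). Of all genes tested, 1.14% were higher and 0.88% lower with age in muscle, and 2.08% and 2.17% in spleen. The calls of Fosb and Dusp5 ended without any 1 spleen library, that of Fosl2 (0.72 to 1.11) without each but young spleen replicate 1, and those of Id2 and Plk3 without each but young spleen replicate 2.

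Upstream regulators and partners, 26 tested genes for SRF, ELK, CREB, NFAT and MEF2 factors, their cofactors, MAP kinases and partners, were higher in muscle for 5 and lower for 4 in young mice (median -0.03) and higher for 2 and lower for 9 in aged mice (median -0.31). Over all genes tested the shares were 11.4% higher and 10.9% lower in young mice, and 9.57% and 9.27% in aged mice. The 5 higher in young muscle were Crem, Mkl2, Mef2c (3.40), Rxra (1.56) and Elk3, and the 4 lower Elk4, Nfatc3, Creb1 and Nfatc1, while Crem and Nab1 were the 2 higher in aged muscle. Crem, a CRE-binding factor gene, was at 84.1 to 106 CPM in spleen and 359 to 458 in muscle, a log2 rise of 2.38 in young and 2.05 in aged mice. Mkl2, an SRF cofactor gene, was at 190 and 191 CPM in young muscle and 48.0 to 69.6 in the other 6 libraries, higher in muscle by 1.83 in young mice and lower with age in muscle by a log2 fold change of -1.78. Nfatc1 and Crtc3 were lower in aged muscle than in aged spleen, at -1.24 and -1.12. In aged mice fewer were lower without either aged spleen library or aged muscle replicate 2. In young mice fewer were lower without young spleen replicate 1 or young muscle replicate 2. These fits leave 1 library in a group, and in each the lower calls over all genes tested fell too. Elk3 and Nab1 also lost their calls without either library of the spleen group compared.

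Of 29 T cell genes linked to EGR or NR4A factors, 9 were higher and 7 lower in muscle of young mice, and 8 and 11 in muscle of aged mice, with medians of 0.22 and -0.29. Beside these stood 11.4% higher and 10.9% lower over all genes tested in young mice, and 9.57% and 9.27% in aged mice. Cdkn1a, the p21 cell cycle inhibitor gene, rose from 5.61 and 7.75 CPM in young spleen to 283 and 236 in young muscle (log2 5.26), and from 15.7 and 13.9 to 275 and 197 in aged mice (3.99). The co-inhibitory receptor gene Ctla4 rose by 2.29 and 1.28 and the costimulatory receptor gene Tnfrsf9 by 1.93 and 1.39, while Bcl6, a follicular T cell factor gene, fell by 2.30 in aged mice. In aged mice fewer were lower without either aged spleen library or aged muscle replicate 2, and fewer were higher without aged spleen replicate 1. The higher calls of Il2ra (0.56) and Tnfrsf4 (0.53) also ended without aged spleen replicate 2, and that of Il2ra (0.43) without aged muscle replicate 1. Without aged muscle replicate 1 the lower calls of Cblb (-0.45), Ikzf4 (-0.48) and Socs1 (-0.53) ended. Calls over all genes tested also fell in these fits, which leave 1 library in a group. Cblb, Ikzf4 and Socs1 also lost their lower calls by DESeq2 and when only the aged groups were fitted. With age in spleen 8 were higher and 2 lower, among them Tnfrsf4 higher by 1.15, beside 2.08% higher and 2.17% lower over all genes tested. The lower ones were Il2ra and Dgka. Without any 1 spleen library fewer were higher and fewer lower with age in spleen, as was also so over all genes tested. With age in muscle Ikzf4 and Tox were higher and Ctla4 lower (0.89, 0.68 and -0.81), but none of the 3 when only the muscle groups were fitted. The calls of Ikzf4 (0.80) and Tox (0.65) ended without young muscle replicate 1, and Tox also without any 1 spleen library (0.68).

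Of the 11 tested genes of the MYC network, 2 were higher and 2 lower in muscle at each age. The shares over all genes tested were 11.4% higher and 10.9% lower in young mice, and 9.57% and 9.27% in aged mice. Mxd1 and Mxi1, which encode MAX partners that oppose MYC, were the higher ones. Mxd1 was at 91.5 to 155 CPM in spleen and 363 to 615 in muscle (log2 2.12 in young and 2.26 in aged mice), and Mxi1 rose by 2.09 and 1.65. Max, the shared partner, was lower by a log2 fold change of -1.24 in young and -1.10 in aged mice, the latter ending without aged spleen replicate 1 (-0.85). Mga in young mice (-0.86) ended without either young spleen library and under other alternatives, and Mxd4 in aged mice (-0.77) without aged spleen replicate 1 (-0.71).

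Of 30 MYC target genes, mostly for ribosome assembly and metabolism, 3 were higher and 15 lower in muscle of young mice, and 2 and 7 in muscle of aged mice, with medians of -0.61 and -0.46. All genes tested gave 11.4% higher and 10.9% lower in young mice, and 9.57% and 9.27% in aged mice. Ddx18, Wdr43 and Ppan, which act in making ribosomes, were lower in young muscle at -1.95, -1.68 and -1.85. The 3 higher ones were Odc1, Slc3a2 and Ldha, of which Slc3a2 and Ldha were not called without young muscle replicate 1 (0.57 and 0.40) or young spleen replicate 1 (0.48 and 0.47). Leaving out replicate 2 of young spleen (0.54) or 1 of the aged spleen libraries (0.50) also ended the call of Ldha. Odc1, the polyamine synthesis enzyme gene, went against them, at 143 to 226 CPM in spleen and 671 to 1073 in muscle (log2 2.17 in young and 2.13 in aged mice). Fewer were lower in young muscle without either young spleen library or young muscle replicate 2. Likewise, fewer were lower in aged muscle without either aged spleen library or aged muscle replicate 2. Lower calls over all genes tested also fell in these fits, which leave 1 library in a group, so the drop is not particular to this list. Without young muscle replicate 1 slightly fewer of the MYC target genes were lower in young muscle. With age 0 of the MYC network genes passed in either tissue by edgeR or DESeq2, with 2 lower in muscle and 1 in spleen at an unadjusted p under 0.05. Of the MYC target genes 0 passed with age by edgeR, against 1 higher in muscle and 1 higher and 1 lower in spleen by DESeq2, and 3 higher in muscle and 2 higher and 8 lower in spleen at an unadjusted p under 0.05.

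**Figure D4:**
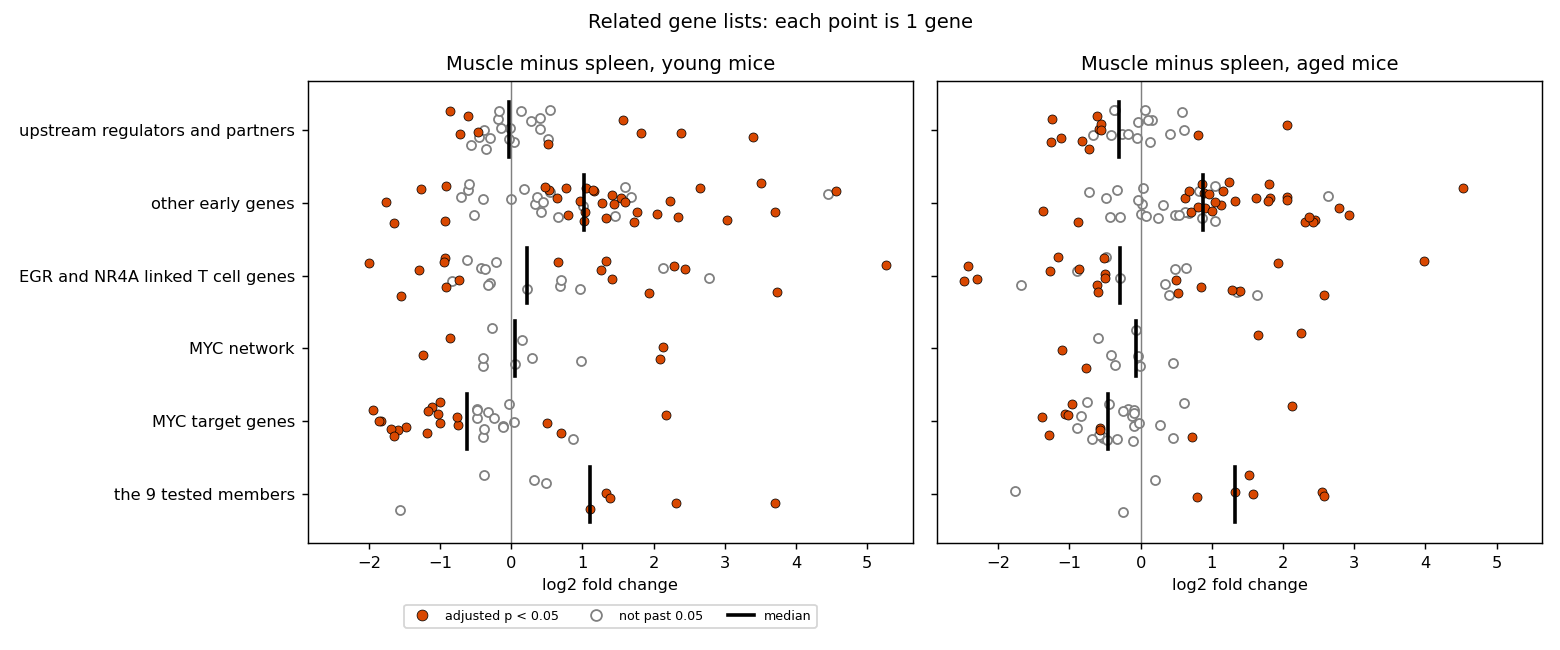
Log2 fold changes of muscle minus spleen (x axis) in young (left) and aged mice (right) for the genes of 5 related lists and the 9 tested genes. Each point is a gene, filled where its edgeR adjusted p is under 0.05, and the bar is the median. The medians of the other early genes are 1.02 and 0.88, and those of the MYC target genes -0.61 and -0.46.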

How the data were processed

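RNA-seq libraries of Tregs, 2 in each of 4 groups, were analysed from the authors' deposited table of raw counts per gene symbol. Per the submitters' processing notes TopHat, TopHat2, HTSeq, Picard and SAMtools 0.1.19 were used with mm10; strand handling is not given in the sources used here. No molecular identifiers are described, so the limit given for a count of 0 covers counting error only.

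Counts were filtered with filterByExpr, scaled by TMM and fitted with edgeR 4.0.16 (robust quasi-likelihood, limma 3.58.1, R 4.3.3), with 1 coefficient per group, 4 residual degrees of freedom and two-sided tests adjusted over the 14772 genes at 0.05. The 95% intervals rest on the spread between libraries. CPM are over TMM-scaled library sizes, log2 CPM for correlations used a prior count of 2, and lengths are unions of GENCODE M21 exons. Promoters came from RefSeq. The code was tested on simulated counts. DESeq2 1.42.0, other scalings, no filter, a replicate block, fits of only the groups compared and leaving out each library were alternatives.

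The 10 genes and the related lists were chosen with earlier results of these data known. Named were all 10 genes, the up to 4 genes of smallest p per list and comparison, and the genes most like each of the 10, leaving out predicted genes, pseudogenes and receptor segments; other genes were named after their values were seen. Settings for the related lists were added after seeing the data.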

Additional observations from a re-analysis of the deposited data

Results flagged for a closer look

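For 12 genes of the related lists the age effect in muscle differed from that in spleen by the test of the difference itself. This is the edgeR interaction, adjusted over all genes tested and given as muscle minus spleen on the log2 scale. Of 26 regulators and partners 0 were higher and 3 lower, and of 50 other early genes 2 and 3. Of 29 genes linked to EGR or NR4A factors 1 was higher and 2 lower. Of 30 MYC target genes 1 was higher and 0 lower, and of 11 MYC network genes 0 passed. Among all genes tested 1.35% were higher and 1.17% lower. The difference was 4.06 for Maff, whose level fell with age in spleen and rose in muscle, and 1.27 for Klf2, which fell in spleen. It was -2.01 for the SRF cofactor gene Mkl2, -1.39 for Plk3, -1.19 for Fosl2 and -0.83 for Jund. Among regulators and partners it was -0.93 for Crtc3 and -1.24 for the retinoid receptor gene Rxrb. Among receptor genes it was -1.01 for Ctla4, -0.81 for Tnfrsf4 and 0.87 for Il2ra, and for Wdr43, a ribosome assembly gene, it was 1.51. The calls of Maff and Mkl2 held under all 13 alternatives, and those of the other 10 genes ended without at least 1 library, that of Klf2 without replicate 1 of young spleen (1.25) or replicate 2 of aged spleen (1.14). None of the 9 tested Nr4a, Egr, Ier and Myc genes met this test.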

How the results depend on the processing

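Calls of Nr4a1, Nr4a3 and Ier2 between tissues at both ages, of Egr1 and Ier3 in young mice, and of Nr4a2 in aged mice and with age in muscle held under all 14 alternatives. With age in muscle, 2 of the tested genes were higher instead of 1 under library-size scaling, with no filter on low counts and by DESeq2, and 1 to 2 when a library was left out (2 without aged muscle replicate 2). In that comparison 1 was lower instead of 0 with no filter and by DESeq2, and 0 to 1 when a library was left out (1, Ier3, without young muscle replicate 2). With age in spleen, 1 (Nr4a2) was higher instead of 0 under library-size scaling, 2 were higher and 1 lower when only these groups were fitted, and 0 to 1 were higher when a library was left out (1 without either young muscle library). Between tissues, 0 to 1 were lower in young mice when a library was left out (1, Myc, without young muscle replicate 2). In aged mice 1 was lower with no filter and when only these groups were fitted, and 0 to 1 when a library was left out (1, Egr2, without either young muscle library). The cause of these changes was not tested.

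The labels do not say whether same-numbered libraries come from the same mice. The correlations of their deviations ran from -0.065 to 0.256, over 0.1 in 2 of the 6 pairs of groups, so the numbers were not taken as pairs. With a replicate block, 2 genes were higher with age in muscle and 1 in spleen, and over all genes 263 were higher and 216 lower with age in muscle (168 and 130 without it) and 469 and 424 in spleen (307 and 320 without it).

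Values that changed sign were all uncalled. Under library-size scaling Nr4a1 was 0.013 with age in muscle and Ier5 0.14 with age in spleen. When a library was left out, the values with age in muscle ran from -0.0031 to 1.77 for Myc, -0.14 to 0.27 for Egr1 and -0.39 to 0.80 for Egr2, and with age in spleen from -0.14 to 0.094 for Ier5. The difference of age effects ran from -0.018 to 0.47 for Nr4a3, -1.82 to 0.27 for Ier3 and -0.028 to 0.30 for Ier2, and muscle minus spleen in young mice from -1.12 to 0.32 for Egr2. The fewest reads lie behind Egr3, Egr2, Myc and, outside young muscle, Ier3.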
